A study of Mus musculus with 30 samples.

Results

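The 42 genes described here encode proteins of cardiac macrophages and of the machinery with which these cells present antigen. They were taken as a list of named genes, chosen with earlier results of these data known. Of the 20764 genes listed for the hearts, 15443 were abundant enough to be tested, among them all 42. They were grouped by role into surface receptors (6 genes), genes of resident macrophages (8), complement (4), MHC class II (4), leukocyte surface and adaptor genes (5), lysosome and effector genes (5), chemokines with their receptors (4), and the Ms4a family with activation genes (6).

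The hearts came from female mice labelled C57BL6, which the study's methods describe as a mixed C57Bl6J/N background. There were 18 hearts, with 1 RNA library per heart and 3 hearts in each of 6 groups. Young mice were taken at 2 months of age and had received no nicotinamide riboside (NR), a precursor of the coenzyme NAD+. Old mice were taken at 12 months. They had drunk water without NR (old H2O) or water with NR at 3 g/l from 2 months of age, for 10 months (old NR). Young and old H2O hearts share the label MQ, which is not spelled out and was read as water without NR. Each kind of mouse was taken at ZT10, in the light phase, and at ZT22, in the dark phase, where ZT counts hours from lights on. All mice were kept under the same cycle of light and dark with standard chow, and the hearts at ZT22 were collected under red light. NR was given by the cage, so mice of 1 group may have shared a cage. RNA came from heart tissue, so each value mixes the cell types of the tissue taken. The study's methods for RNA do not say which chambers that tissue held.

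Macrophages are the most numerous leukocytes of the healthy heart. Resident cells are seeded before birth, renew themselves locally and take up debris through scavenger receptors such as CD163, MRC1 (CD206), LYVE1 and TIMD4, whereas cells that carry the chemokine receptor CCR2 are replaced from blood monocytes. Cells that present antigen load peptides onto MHC class II molecules, which travel to the loading compartment bound to the invariant chain CD74. Macrophages are also the main source of C1q, which starts the classical complement cascade, and their survival depends on signals through the receptor CSF1R.

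Libraries held between 3922137 and 7562215 counts (median 5534659). Cardiomyocyte markers (Myh6, Tnnt2, Actc1, Ryr2 and Pln) summed to between 24550 and 37200 normalized counts in every heart, as befits the labelled tissue. A normalized count here is a count scaled by TMM, edgeR's trimmed mean method, to the average effective library of 5651245 counts. 1 heart stood apart for these genes: in old H2O ZT10 replicate 2 the 42 genes summed to 10730 normalized counts, against 8741 and 8872 in the other hearts of its group, and the 4 MHC class II genes to 2756, against 1781 and 1926. Where leaving it out lost a call or turned a printed value of the 42 genes, that is said beside the value. Not every gene that gained a call without it is named. No result of the pathway and marker lists was read from a fit without it. The labels name the hearts only as separate samples, so the p-values measure the spread between these samples. In RNA of mixed heart tissue, fewer macrophages and less RNA per macrophage cannot be told apart.

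Per kilobase of exon, averaged over the 18 hearts, Lyz2 was the most abundant of the 42 genes at 520.3 normalized counts, followed by Cd74 at 427.3, C1qa at 334.1, C1qb at 297.5 and H2-Eb1 at 201.5. At the other end stood Trem2 at 3.445 and Gpnmb at 4.447. The MHC class II and C1q genes thus made up most of the upper end of the order, and the activation genes the lower end. In GRCm38, with the GENCODE M21 annotation, C1qb (chr4:136880129-136886187), C1qc (chr4:136889804-136893065) and C1qa (chr4:136895917-136898803) lie side by side on the minus strand. H2-Ab1 (chr17:34257689-34269419), H2-Aa (chr17:34282744-34287823) and H2-Eb1 (chr17:34305867-34316674) form a second cluster, and Ccl9 (chr11:83572919-83578636) and Ccl6 (chr11:83587882-83593087) are neighbours on another chromosome. Reads that map to more than 1 place had been removed by the authors, so the levels of genes with close copies (Lyz2, Fcgr3, Ms4a6c, Ccl6, Ccl9 and the H2 genes) carry more doubt than their counts alone would give.

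Promoter sequences from RefSeq (GRCm38.p6) were found for 32 of the 42 genes, with 37 promoters in all, and none was found for Csf1r, Adgre1, Cd14, Lyve1, C1qa, Cd74, H2-Ab1, Cd52, Tyrobp and Clec4n. The 250 bases before each RefSeq start site were searched on both strands for the letters GAGGAA, the core bound by PU.1, the factor that specifies macrophages, and for GATTGG, the Y box of MHC class II promoters, a motif that reads CCAATC on the other strand. The core GAGGAA was found in 15 of the 37 member promoters (40.5%) and in 23.3% of the 32851 promoters of the table. The Y box was found in 5 of the 37 (13.5%), those of Cd163, Cd68, H2-Aa, H2-Eb1 and Trem2, and in 14.6% of the table. TGCTGAC, part of the site bound by the MAF family, was found in 3 of the 37 (8.11%) and in 3.81% of the table. The 3 were the promoter of Timd4 and overlapping promoters of Fcgr3 that hold the same site. These Fcgr3 promoters also share their PU.1 core and are counted apart among the 15. CACGTG, the E-box bound by BMAL1 and CLOCK, was found in 0 of the 37 and in 6.02% of the table. These matches are descriptions of letters, not of binding. 4 promoters are shown, those of Mrc1 and F13a1, which had the lowest adjusted p with age at ZT22 among the 42 genes, and those of H2-Aa and H2-Eb1, which were called in no comparison. Each runs 5′ to 3′ along the gene's strand and ends at the base before the start site, with the PU.1 core in capitals for Mrc1 (chr2:14229164-14229413, plus strand) and F13a1 (chr13:37050245-37050494, minus strand) and the Y box in capitals for H2-Aa (chr17:34287824-34288073, minus strand) and H2-Eb1 (chr17:34305617-34305866, plus strand).
Mrc1: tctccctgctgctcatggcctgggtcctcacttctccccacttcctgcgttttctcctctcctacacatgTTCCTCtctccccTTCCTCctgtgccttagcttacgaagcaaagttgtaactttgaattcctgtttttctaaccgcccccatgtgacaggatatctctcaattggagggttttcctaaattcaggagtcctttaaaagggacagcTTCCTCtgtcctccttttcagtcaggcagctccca
F13a1: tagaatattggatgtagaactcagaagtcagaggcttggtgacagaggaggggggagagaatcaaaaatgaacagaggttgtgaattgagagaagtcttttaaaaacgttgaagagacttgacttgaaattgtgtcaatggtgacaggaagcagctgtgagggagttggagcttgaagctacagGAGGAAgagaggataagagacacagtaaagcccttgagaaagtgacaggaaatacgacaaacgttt
H2-Aa: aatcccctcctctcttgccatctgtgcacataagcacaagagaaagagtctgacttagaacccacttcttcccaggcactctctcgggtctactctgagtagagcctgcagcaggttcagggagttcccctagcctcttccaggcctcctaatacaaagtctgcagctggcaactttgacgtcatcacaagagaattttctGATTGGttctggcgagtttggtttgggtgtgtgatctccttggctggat
H2-Eb1: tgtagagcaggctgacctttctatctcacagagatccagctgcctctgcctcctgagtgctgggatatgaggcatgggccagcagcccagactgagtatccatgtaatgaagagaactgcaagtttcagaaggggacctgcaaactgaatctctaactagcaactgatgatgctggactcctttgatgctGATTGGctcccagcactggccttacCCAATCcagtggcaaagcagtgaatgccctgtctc
Mrc1 held 3 matches to the PU.1 core, whose first bases lay 180, 167 and 35 bases before the start, and F13a1 held 1 match at 66 bases. The table holds another F13a1 promoter (chr13:37049214-37049463, minus strand), which is not shown and held no PU.1 core. H2-Aa held 1 Y box at 49 bases, and H2-Eb1 held 2, at 60 and 35 bases.

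The 42 genes were called higher in old H2O than in young hearts more often than genes at large, and at ZT22 nearly all of them had lower levels in old NR than in old H2O hearts. They were chosen with earlier results of these data known, so part of their difference from genes at large may come from the choice. Counts of all 18 hearts were fitted with edgeR's quasi-likelihood test. The threshold for a call was an adjusted p under 0.05 (Benjamini-Hochberg over the 15443 genes). At ZT10, 9 of the 42 genes were called higher in old H2O than in young hearts and 0 lower, while 2.95% of all genes tested were called higher, 2.92% lower and 5.87% in either direction. Without old H2O ZT10 replicate 2 the count was 7, with 6 higher (Adgre1, F13a1, Gpnmb, Lgals3, Lyz2 and Mpeg1) and Cx3cr1 lower, at a log2 fold change of -1.29 (edgeR, adjusted p = 0.00968). At ZT22, 19 of the 42 were called higher and 0 lower, against 7.96% of all genes called higher, 6.17% lower and 14.1% in either direction. The median log2 fold change of the 42 genes between old H2O and young hearts was 0.20 at ZT10 and 0.39 at ZT22, beside medians over all genes tested of less than 0.01 in size. The 3 old H2O hearts all lay above the 3 young hearts for 15 of the 42 genes at ZT10 and for 25 at ZT22, while 13.8% and 14.7% of all genes tested were separated in this way. No member lay wholly below the young hearts at either time, beside 14% and 13.5% of all genes.

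Old NR hearts were compared with old H2O hearts of the same age and time. The same old H2O hearts had been compared with the young ones, so these comparisons are not independent of each other. At ZT22, 5 of the 42 genes were called lower with NR and 0 higher, against 0.259% of all genes called lower and 0.35% in either direction. At the unadjusted p of 0.05, 30 of the 42 were lower and 0 higher, beside 6.24% of all genes lower. All 3 old NR hearts lay below all 3 old H2O hearts for 32 of the 42 genes, beside 7.25% of all genes, and the log2 fold change was below 0 for 41 of the 42, with Gpnmb the exception, beside 47.5% of all genes. The median of the 42 log2 fold changes was -0.43. At ZT10, 1 of the 42 genes, Lyz2, was called lower with NR and 0 higher, against 0.168% of all genes called lower and 0.285% in either direction. The log2 fold change was below 0 for 37 of the 42 (50.8% of all genes), 13 were separated downward (9.21% of all genes), and the median was -0.20. Without old H2O ZT10 replicate 2 this median was -0.01, and the median of old H2O against young at ZT10 was 0.09.

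Summed over the 42 genes, the normalized counts at ZT10 were 7655, 8343 and 7933 in young, 8741, 10730 and 8872 in old H2O and 7813, 8148 and 8384 in old NR hearts. At ZT22 the sums were 7014, 7322 and 8242 in young, 10340, 9560 and 9313 in old H2O and 7577, 7199 and 7638 in old NR hearts. The old H2O hearts lay above all young and all old NR hearts at both times, and the old NR and young hearts overlapped at both times. Cd74, Lyz2 and F13a1 contributed most to these sums. The map of the 42 genes by heart and the sums by role show these levels.

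**Figure D1:**
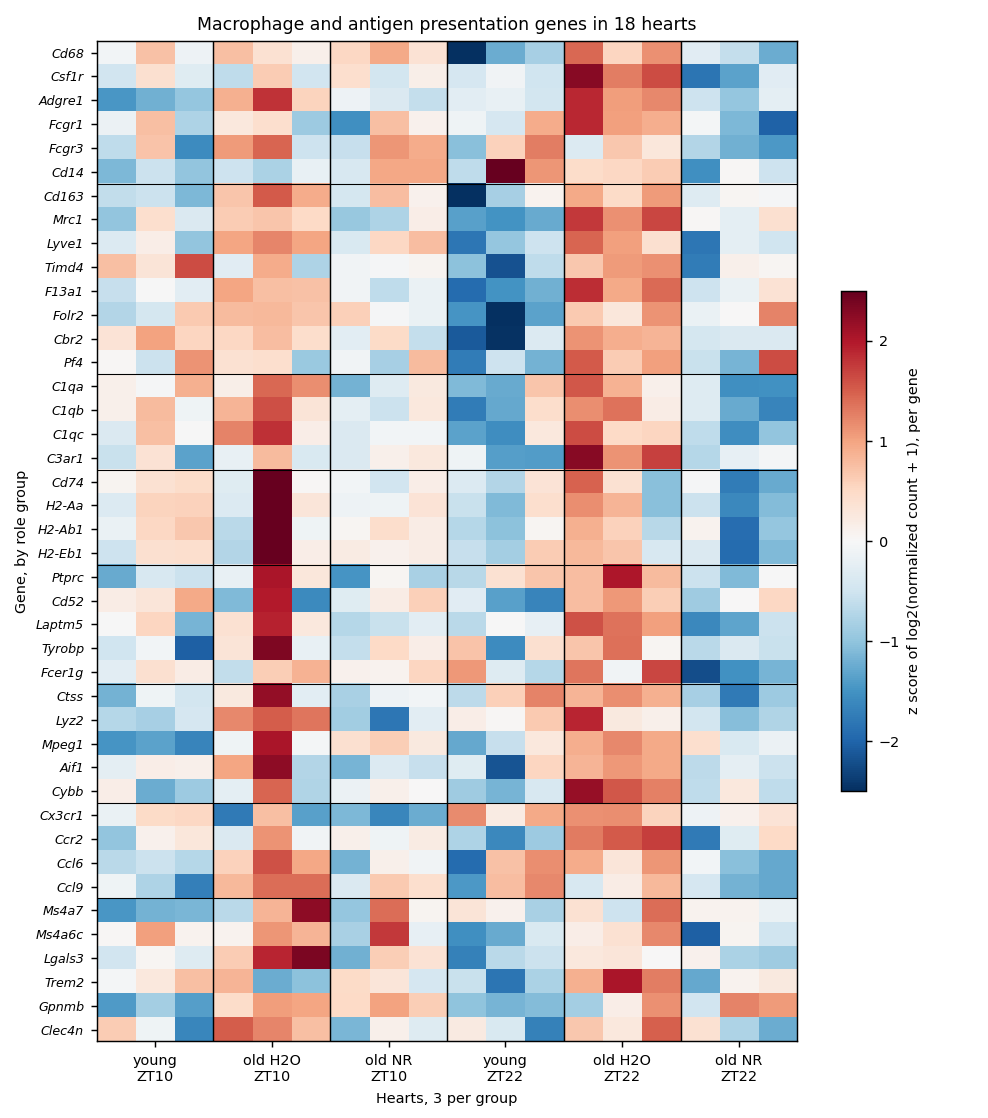
Level of each of the 42 genes (y axis, in order of role) in each of the 18 hearts (x axis, by group), as a z score of log2(normalized count + 1) over the 18 hearts of that gene. The old H2O hearts at ZT22 hold most of the high scores, old H2O ZT10 replicate 2 stands out in the MHC class II genes, and the old NR hearts at ZT22 hold low scores for most genes. Over the 42 genes, the mean log2(normalized count + 1) at ZT22 was 6.707, 6.747 and 6.795 in old NR hearts. In young hearts it was 6.633, 6.637 and 6.821, so low scores at ZT22 were not particular to old NR.

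**Figure D2:**
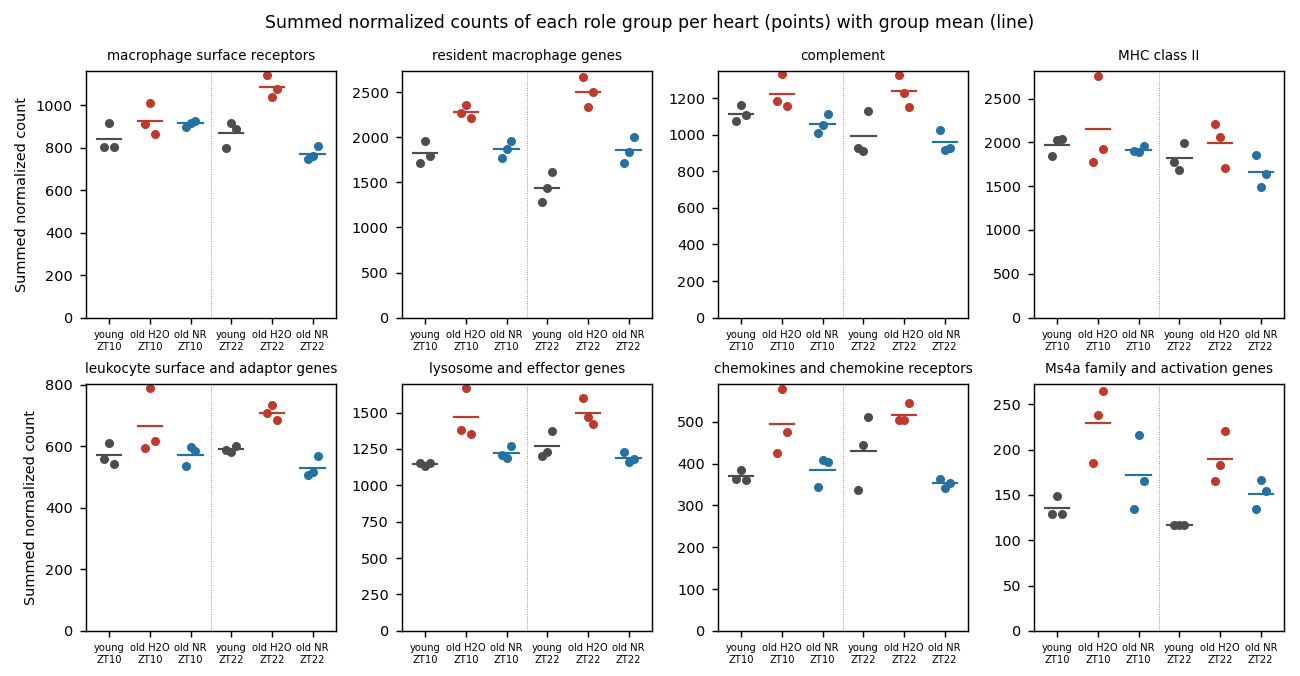
Summed normalized counts (y axis, linear) of the genes of each of the 8 roles in every heart (points), by group (x axis), with a line at the mean of 3 hearts. The sum of the 8 resident macrophage genes at ZT22 was 2338 to 2672 in old H2O hearts and at most 2010 in the others at that time, while the sums of the 4 MHC class II genes overlapped between young, old H2O and old NR hearts at each time.

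At ZT22, 7 of the 8 genes of resident macrophages were called higher in old H2O than in young hearts, the highest share of any role at that time. The groups were separated for all 8, and the median log2 fold change was 0.85. At ZT10, 3 of the 8 were called (Cd163, F13a1 and Lyve1). With NR at ZT22, 2 of the 8, F13a1 and Mrc1, were called lower than in old H2O hearts, and 6 of the 8 were separated downward. Mrc1 encodes the mannose receptor CD206, which binds sugars on microbes and on the body's own glycoproteins. Its normalized counts at ZT10 were 354, 479 and 404 in young, 501, 509 and 487 in old H2O and 356, 369.7 and 453 in old NR hearts. At ZT22, Mrc1 was at 326, 317 and 332 in young, 639, 560.5 and 626 in old H2O and 439, 416 and 476 in old NR hearts. The 3 groups formed 3 separate bands at ZT22, with young lowest, old NR in the middle and old H2O highest. The log2 fold change of old H2O against young hearts was 0.90 ± 0.10 (SE, edgeR adjusted p = 3.08e-06) at ZT22 and 0.27 ± 0.10 (SE, edgeR adjusted p = 0.1) at ZT10. Between old NR and old H2O hearts it was -0.45 ± 0.09 (SE, edgeR adjusted p = 0.0291) at ZT22 and -0.35 ± 0.09 (SE, edgeR adjusted p = 0.144) at ZT10.

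F13a1, the A subunit of coagulation factor XIII, is carried by tissue macrophages. F13a1 counts at ZT10 were 479, 546 and 515 in young, 693, 653 and 652 in old H2O and 537, 472 and 526 in old NR hearts. The counts at ZT22 were 348, 385 and 413 in young, 847, 686 and 765 in old H2O and 485, 526 and 598 in old NR hearts. At both times the old H2O hearts lay above both other groups, and old NR hearts lay above young hearts at ZT22 only. For old H2O against young hearts F13a1 gave 0.37 ± 0.09 (SE, edgeR adjusted p = 0.0111) at ZT10 and 0.99 ± 0.09 (SE, edgeR adjusted p = 2.29e-07) at ZT22. Between old NR and old H2O hearts the log2 fold change was -0.38 ± 0.08 (SE, edgeR adjusted p = 0.0522) at ZT10 and -0.50 ± 0.08 (SE, edgeR adjusted p = 0.00864) at ZT22. The call with NR at ZT22 was lost without old NR ZT22 replicate 2 (edgeR, adjusted p up to 0.059), and that of Mrc1 without old H2O ZT22 replicate 1 or 2 or 3 or old NR ZT22 replicate 1 or 2 (edgeR, adjusted p up to 0.14). With age at ZT10, the call of F13a1 was lost without old H2O ZT10 replicate 1 or young ZT10 replicate 1 (edgeR, adjusted p up to 0.0618).

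Cd163, the scavenger receptor for haemoglobin bound to haptoglobin, was at 306, 311 and 275 in young, 400.4, 477 and 421 in old H2O and 317, 408 and 354 in old NR hearts at ZT10. At ZT22, Cd163 counts were 196, 292 and 353 in young, 423, 383 and 433 in old H2O and 325, 350.3 and 345 in old NR hearts. Old H2O hearts lay above all young hearts at both times, and old NR hearts lay between, overlapping with old H2O at ZT10 and with young at ZT22. Cd163 differed with age by 0.54 ± 0.13 (SE, edgeR adjusted p = 0.0148) on the log2 scale at ZT10 and 0.54 ± 0.13 (SE, edgeR adjusted p = 0.00735) at ZT22. With NR the values were -0.26 ± 0.12 (SE, edgeR adjusted p = 0.476) and -0.27 ± 0.12 (SE, edgeR adjusted p = 0.404). Lyve1 encodes a receptor for hyaluronan found on macrophages that line vessels and on lymphatic endothelium. Its counts at ZT10 were 275, 304 and 242 in young, 355, 371 and 356 in old H2O and 272, 324 and 341 in old NR hearts. At ZT22, Lyve1 stood at 207, 244 and 265 in young, 389.6, 358 and 318 in old H2O and 207, 280 and 267 in old NR hearts. Every old H2O heart lay above both other groups at both times, and young and old NR hearts overlapped. Lyve1 differed with age by 0.39 ± 0.11 (SE, edgeR adjusted p = 0.0386) on the log2 scale at ZT10 and 0.55 ± 0.11 (SE, edgeR adjusted p = 0.0023) at ZT22. The difference with NR at ZT22 was -0.46 ± 0.11 (SE, edgeR adjusted p = 0.0686). Without young ZT22 replicate 1 the ZT22 value of Cd163 with age was 0.36 (edgeR, adjusted p = 0.0262). The ZT10 call of Cd163 was lost without old H2O ZT10 replicate 2 or young ZT10 replicate 3 (edgeR, adjusted p up to 0.0838), and that of Lyve1 without old H2O ZT10 replicate 1 or 2 or 3 or young ZT10 replicate 1 or 3 (edgeR, adjusted p up to 0.18).

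Cbr2, a carbonyl reductase used as a mark of resident macrophages, was at 153, 178 and 161 in young, 159.9, 169 and 157 in old H2O and 134, 158 and 124 in old NR hearts at ZT10. At ZT22, Cbr2 was at 88.7, 81.6 and 132 in young, 184, 175 and 172 in old H2O and 129, 131 and 131 in old NR hearts. The groups overlapped at ZT10, whereas at ZT22 the old H2O hearts lay above the others and 2 of the 3 young hearts lay lowest. Cbr2 gave, with age, 0.81 ± 0.13 (SE, edgeR adjusted p = 0.000355) on the log2 scale at ZT22 and -0.02 ± 0.13 (SE, edgeR adjusted p = 0.966) at ZT10. With NR at ZT22 the value for Cbr2 was -0.43 ± 0.12 (SE, edgeR adjusted p = 0.148). Timd4, a receptor for phosphatidylserine on dying cells, was far less abundant. It was at 35.6, 31.1 and 46.5 in young, 25.7, 37.4 and 22.1 in old H2O and 27.2, 27.8 and 28.7 in old NR hearts at ZT10. The counts of Timd4 at ZT22 were 20.3, 14.1 and 22.99 in young, 34.6, 39.1 and 39.99 in old H2O and 16.1, 29.2 and 28.6 in old NR hearts. At ZT22 the old H2O hearts lay above the others, while at ZT10 the young hearts lay above the old NR hearts and overlapped with the old H2O hearts. Timd4 differed with age at ZT22 by 1.01 ± 0.26 (SE, edgeR adjusted p = 0.011) on the log2 scale, a call lost without young ZT22 replicate 2 (edgeR, adjusted p up to 0.0741).

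Folr2, the folate receptor beta, was at 24.5, 26.9 and 38.9 in young, 40.9, 41.3 and 39.5 in old H2O and 38.4, 31.01 and 29.6 in old NR hearts at ZT10. Its counts at ZT22 were 19.01, 13.1 and 19.9 in young, 39.1, 34.6 and 45.7 in old H2O and 29.5, 31.4 and 47.6 in old NR hearts. At ZT22 the young hearts lay below every old heart with or without NR, which overlapped with each other. Folr2 rose with age at ZT22 by a log2 fold change of 1.22 ± 0.25 (SE, edgeR adjusted p = 0.00236). The value was -0.12 ± 0.21 (SE, edgeR adjusted p = 0.921) between old NR and old H2O hearts. Pf4, the chemokine CXCL4, was not called in any of the comparisons, with a log2 fold change with age at ZT22 of 0.44 ± 0.15 (SE, edgeR adjusted p = 0.0543) and with NR of -0.19 ± 0.14 (SE, edgeR adjusted p = 0.706). The plot of 12 genes by heart shows Mrc1, F13a1, Cd163 and Cbr2 beside genes of other roles.

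**Figure D3:**
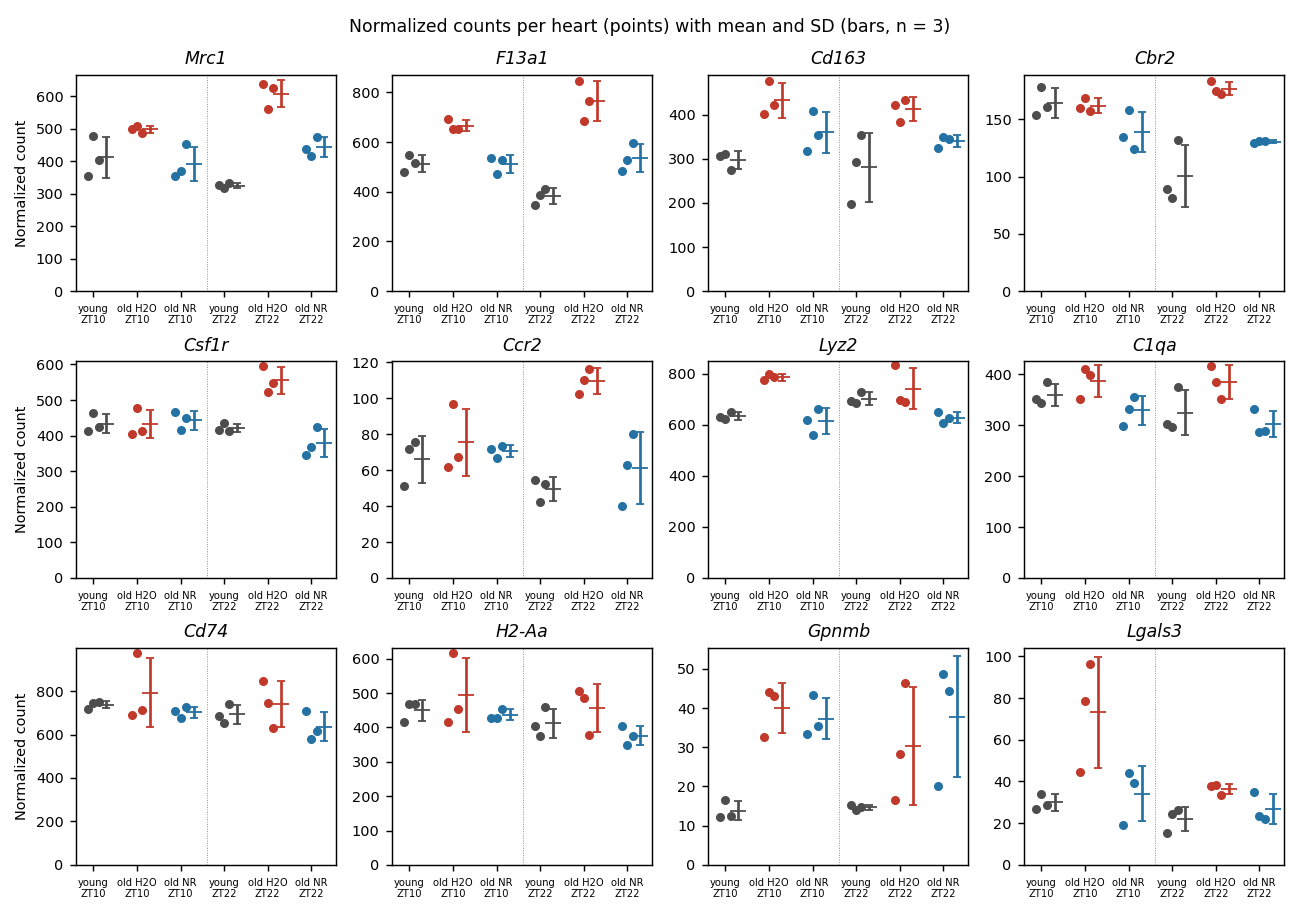
Normalized counts (y axis, linear) of 12 of the 42 genes in each heart (points), by group (x axis: young, old H2O and old NR at ZT10 and ZT22), with the mean and SD of 3 hearts. Mrc1 at ZT22 was 317 to 332 in young, 416 to 476 in old NR and 560.5 to 639 in old H2O hearts, while Cd74 and H2-Aa overlapped between young, old H2O and old NR hearts at each time and Gpnmb was lower in young than in old hearts at each time.

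Of the surface receptors, 3 of 6 were called higher with age at ZT22 and 1 at ZT10, and all 6 were separated downward with NR at ZT22, where 2 were called. Csf1r encodes the receptor for CSF1 and IL-34, on which macrophages depend for survival. Its counts at ZT10 were 414, 464 and 423 in young, 405, 479 and 414 in old H2O and 465, 415 and 449 in old NR hearts. Csf1r at ZT22 was at 417, 435 and 413 in young, 596, 522 and 548 in old H2O and 345, 369 and 424 in old NR hearts. The groups overlapped at ZT10, and at ZT22 the old H2O hearts lay above all others. With age, the log2 fold change of Csf1r at ZT22 was 0.39 ± 0.08 (SE, edgeR adjusted p = 0.00239) and at ZT10 it was below 0.01 in size (edgeR, adjusted p = 0.998). For old NR against old H2O hearts it was -0.53 ± 0.08 (SE, edgeR adjusted p = 0.00403) at ZT22 and 0.03 ± 0.08 (SE, edgeR adjusted p = 0.932) at ZT10. The call with NR was lost without old NR ZT22 replicate 2 (edgeR, adjusted p up to 0.0561).

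Adgre1 encodes F4/80, the classical surface antigen of mouse macrophages. At ZT10 it was at 112, 117 and 122 in young, 166, 193 and 157 in old H2O and 140.3, 135 and 129.9 in old NR hearts. The Adgre1 counts at ZT22 were 137, 139 and 133 in young, 196, 170.1 and 175 in old H2O and 132, 122 and 137 in old NR hearts. The old H2O hearts lay above both other groups at both times, and old NR hearts lay above young hearts at ZT10. Adgre1 rose with age by 0.56 ± 0.10 (SE, edgeR adjusted p = 0.00142) on the log2 scale at ZT10 and 0.39 ± 0.09 (SE, edgeR adjusted p = 0.00813) at ZT22. Its log2 fold change with NR was -0.35 ± 0.09 (SE, edgeR adjusted p = 0.132) at ZT10 and -0.46 ± 0.09 (SE, edgeR adjusted p = 0.0298) at ZT22, a call that was lost without old H2O ZT22 replicate 1 or 2 or 3 or old NR ZT22 replicate 1 or 2 (edgeR, adjusted p up to 0.142) and with DESeq2 on all hearts.

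Cd68, a glycoprotein of macrophage endosomes, was at 78.9, 94.3 and 77.9 in young, 94.5, 87.3 and 82.5 in old H2O and 89.8, 98.8 and 86.9 in old NR hearts at ZT10. At ZT22, Cd68 counts were 45.6, 60.96 and 66.9 in young, 109.8, 90.1 and 103 in old H2O and 75.2, 70.4 and 61.1 in old NR hearts. The groups overlapped at ZT10, and at ZT22 the old H2O hearts lay above all others. Its log2 fold change at ZT22 was 0.78 ± 0.14 (SE, edgeR adjusted p = 0.001) with age and -0.55 ± 0.14 (SE, edgeR adjusted p = 0.082) with NR. Cd14, the co-receptor for bacterial lipopolysaccharide, was at 50.03, 57.00 and 51.5 in young, 57.2, 53.7 and 61.6 in old H2O and 58.5, 79.2 and 79.3 in old NR hearts at ZT10. Its counts at ZT22 were 55.8, 112 and 81.5 in young, 70.7, 71.9 and 73.5 in old H2O and 45.6, 64.4 and 57.1 in old NR hearts. Young hearts at ZT22 spread over the widest range, set by replicate 2, and the old NR hearts overlapped with them. Cd14 was not called with age (log2 fold change at ZT22 of -0.23 ± 0.18 (SE, edgeR adjusted p = 0.461)) nor between old NR and old H2O hearts (-0.34 ± 0.19 (SE, edgeR adjusted p = 0.534)). The Fc receptors for IgG, Fcgr1 and Fcgr3, were not called in any comparison, with log2 fold changes with NR at ZT22 of -0.74 ± 0.22 (SE, edgeR adjusted p = 0.169) and -0.30 ± 0.14 (SE, edgeR adjusted p = 0.426).

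Among the complement genes, 3 of 4 were called higher with age at ZT22 and 0 at ZT10, and with NR 0 were called at either time. At an unadjusted p under 0.05, 3 were lower with NR at ZT10 and 4 at ZT22, where all 4 were separated downward, and DESeq2 called 0 at both times. At this unadjusted p, 6.24% of all genes were lower with NR at ZT22, and no share of all genes is given for ZT10. C1qa, C1qb and C1qc encode the 3 chains of C1q. C1qa was at 350.2, 344 and 384 in young, 351, 411 and 398 in old H2O and 299, 332 and 355 in old NR hearts at ZT10. At ZT22, C1qa was at 302, 296 and 375 in young, 417, 384 and 351 in old H2O and 332, 287 and 287 in old NR hearts. C1qb counts at ZT22 were 255, 271 and 341 in young, 375, 385 and 329 in old H2O and 308, 272 and 258 in old NR hearts. The 3 old H2O hearts and the young hearts overlapped for C1qa and C1qb at ZT22, through young replicate 3, and the old NR hearts lay below the old H2O hearts. C1qc at ZT22 was at 283, 276 and 346 in young, 411, 357 and 358 in old H2O and 309, 276 and 296 in old NR hearts. At ZT10, C1qb was at 327, 356 and 317 in young, 359.5, 398 and 335 in old H2O and 311, 299 and 332 in old NR hearts. The C1qc counts at ZT10 were 320.2, 368 and 334 in young, 391, 421 and 342 in old H2O and 319.9, 332 and 332 in old NR hearts. For C1qb and C1qc the old NR hearts at ZT10 lay below the old H2O hearts and overlapped with the young hearts. At ZT22 the log2 fold change with age was 0.23 ± 0.10 (SE, edgeR adjusted p = 0.117) for C1qa, 0.32 ± 0.10 (SE, edgeR adjusted p = 0.0336) for C1qb and 0.30 ± 0.09 (SE, edgeR adjusted p = 0.029) for C1qc. For NR at ZT22 it was -0.35 ± 0.09 (SE, edgeR adjusted p = 0.118), -0.38 ± 0.10 (SE, edgeR adjusted p = 0.0932) and -0.35 ± 0.09 (SE, edgeR adjusted p = 0.0974) in the same order. The age call of C1qb was lost without old H2O ZT22 replicate 1 or 2 or young ZT22 replicate 1 or 2 (edgeR, adjusted p up to 0.141) and that of C1qc without old H2O ZT22 replicate 1 or young ZT22 replicate 1 or 2 (edgeR, adjusted p up to 0.147), and both were lost with DESeq2 and with a fit of the 2 groups alone.

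C3ar1 encodes the receptor for the complement fragment C3a. Its counts at ZT10 were 81.2, 94.3 and 71.6 in young, 86.4, 100.8 and 83.7 in old H2O and 83.8, 90.6 and 92.7 in old NR hearts. C3ar1 at ZT22 stood at 87.5, 71.3 and 71.05 in young, 128, 106 and 117 in old H2O and 79.2, 86.1 and 88.1 in old NR hearts. All groups overlapped at ZT10, and the old H2O hearts lay above all others at ZT22. C3ar1 had the largest log2 fold change with age at ZT22 of the 4 complement genes, 0.61 ± 0.13 (SE, edgeR adjusted p = 0.0027). With NR it was -0.45 ± 0.12 (SE, edgeR adjusted p = 0.117).

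None of the 4 MHC class II genes was called by edgeR in any of the 11 comparisons made, and their groups overlapped in every comparison with age or NR. At an unadjusted p under 0.05 stood H2-Aa and H2-Eb1 with NR at ZT22 and H2-Eb1 between the times in old NR hearts. DESeq2 called 0 of the 4 with age or NR at either time. Cd74, the invariant chain, was at 718, 745 and 751 in young, 689, 977 and 715 in old H2O and 706, 675 and 727 in old NR hearts at ZT10. At ZT22, Cd74 was at 684, 655 and 742 in young, 845, 744 and 632 in old H2O and 710.3, 582 and 616 in old NR hearts. The highest of the 18 hearts was old H2O ZT10 replicate 2. H2-Aa, the alpha chain of I-A, was at 415, 467 and 469 in young, 414, 617 and 452 in old H2O and 427, 428 and 455 in old NR hearts at ZT10. Its counts at ZT22 were 403, 374 and 459 in young, 507, 487 and 377 in old H2O and 404, 349.6 and 375 in old NR hearts. The same heart was the highest for H2-Aa. The log2 fold change of Cd74 with age at ZT22 was 0.08 ± 0.11 (SE, edgeR adjusted p = 0.691), with an approximate 95% interval of -0.14 to 0.30. That of H2-Aa was 0.13 ± 0.12 (SE, edgeR adjusted p = 0.526), with an interval of -0.11 to 0.37. A rise as large as that of Mrc1 lies outside these intervals, whereas one as large as that of C1qb lies inside the interval of H2-Aa. The corresponding values with NR were -0.21 ± 0.11 (SE, edgeR adjusted p = 0.484) for Cd74 and -0.27 ± 0.12 (SE, edgeR adjusted p = 0.402) for H2-Aa. H2-Ab1 and H2-Eb1, the beta chains of I-A and I-E, gave -0.27 ± 0.15 (SE, edgeR adjusted p = 0.528) and -0.32 ± 0.14 (SE, edgeR adjusted p = 0.373). All 4 log2 fold changes with NR at ZT22 lay below 0, between -0.32 and -0.21. The intervals of H2-Eb1, -0.59 to -0.05, and of H2-Aa lay wholly below 0.

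Among leukocyte surface and adaptor genes, 1 of 5 was called with age at ZT22 and the same gene, Laptm5, with NR at ZT22, where all 5 were separated downward. Laptm5 encodes a lysosomal membrane protein of blood cells. It was at 226, 242 and 196 in young, 237, 287 and 234 in old H2O and 207, 211 and 219 in old NR hearts at ZT10. The Laptm5 counts at ZT22 were 208, 226 and 220.5 in young, 275, 268 and 257 in old H2O and 185, 192 and 212 in old NR hearts. Old H2O hearts lay above both other groups at ZT22, while at ZT10 they lay above the old NR hearts and overlapped with the young. Laptm5 differed with age at ZT22 by 0.28 ± 0.09 (SE, edgeR adjusted p = 0.0375) on the log2 scale, a call lost without any 1 of the 6 hearts (edgeR, adjusted p up to 0.107), with DESeq2, with no filter on low counts and in a fit of the 2 groups alone. It differed with NR by -0.43 ± 0.09 (SE, edgeR adjusted p = 0.0318), a call lost without old H2O ZT22 replicate 1 or 2 or 3 or old NR ZT22 replicate 1 or 2 (edgeR, adjusted p up to 0.14). Ptprc encodes CD45, which all leukocytes carry. Ptprc counts at ZT10 were 143, 165 and 161 in young, 170.4, 244 and 184 in old H2O and 138, 177 and 154 in old NR hearts. At ZT22, Ptprc was at 157, 187 and 196 in young, 199, 243 and 199 in old H2O and 161, 147 and 175 in old NR hearts. For Ptprc the old H2O hearts lay above young hearts at both times and above old NR hearts at ZT22. It passed the test in none of the comparisons, with log2 fold changes at ZT22 of 0.24 ± 0.13 (SE, edgeR adjusted p = 0.227) with age and -0.41 ± 0.13 (SE, edgeR adjusted p = 0.18) with NR. Cd52 and the signaling adaptors Tyrobp and Fcer1g were not called either, and the lowest adjusted p among them was that of Fcer1g with NR at ZT22, at a log2 fold change of -0.63 ± 0.14 (SE, edgeR adjusted p = 0.0579).

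Lysosome and effector genes gave 2 calls of 5 with age at each time. Lyz2 encodes lysozyme M, which cleaves bacterial cell walls. Lyz2 counts at ZT10 were 631, 623 and 651 in young, 774, 800.2 and 786 in old H2O and 621, 561 and 662 in old NR hearts. At ZT22, Lyz2 was at 693, 684 and 730.4 in young, 835, 699 and 690.5 in old H2O and 649, 607 and 629 in old NR hearts. At ZT10 the old H2O hearts lay above all young and old NR hearts, which overlapped, and at ZT22 the old NR hearts lay below both other groups. Lyz2 gave, with age, 0.31 ± 0.07 (SE, edgeR adjusted p = 0.0109) on the log2 scale at ZT10 and 0.07 ± 0.07 (SE, edgeR adjusted p = 0.582) at ZT22. The difference with NR was -0.36 ± 0.07 (SE, edgeR adjusted p = 0.0286) at ZT10 and -0.23 ± 0.07 (SE, edgeR adjusted p = 0.167) at ZT22. The NR call at ZT10 was lost without any 1 of the 6 hearts (edgeR, adjusted p up to 0.178). Mpeg1 encodes perforin-2, which forms pores in engulfed bacteria. Its counts at ZT10 were 149, 153 and 143 in young, 202, 325 and 205 in old H2O and 226, 237 and 219 in old NR hearts. Mpeg1 at ZT22 was at 156, 182 and 219 in young, 253, 270.2 and 255 in old H2O and 227, 190.1 and 200 in old NR hearts. At ZT10 the young hearts lay below every old heart, with or without NR, and old H2O replicate 2 lay far above the rest. Mpeg1 rose with age by 0.73 ± 0.15 (SE, edgeR adjusted p = 0.00458) on the log2 scale at ZT10 and 0.48 ± 0.14 (SE, edgeR adjusted p = 0.0265) at ZT22, the latter call being lost without old H2O ZT22 replicate 2 or 3 or young ZT22 replicate 1 or 2 (edgeR, adjusted p up to 0.105). Without old H2O replicate 2 the ZT10 value was 0.45 (edgeR, adjusted p = 0.0372). The values of Mpeg1 with NR were -0.12 ± 0.14 (SE, edgeR adjusted p = 0.8) at ZT10, or 0.16 without old H2O replicate 2, and -0.35 ± 0.14 (SE, edgeR adjusted p = 0.312) at ZT22.

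Cybb encodes the catalytic subunit of the phagocyte NADPH oxidase. It was at 178, 137 and 146 in young, 165, 226 and 149.9 in old H2O and 168, 176 and 173 in old NR hearts at ZT10. At ZT22, Cybb counts were 146, 139 and 159.9 in young, 259, 230.2 and 218 in old H2O and 153, 181 and 153 in old NR hearts. The groups overlapped at ZT10, and at ZT22 the old H2O hearts lay above all others. Cybb gave at ZT22 0.66 ± 0.13 (SE, edgeR adjusted p = 0.00162) with age and -0.51 ± 0.12 (SE, edgeR adjusted p = 0.0698) with NR on the log2 scale. Ctss, the protease cathepsin S that trims the invariant chain, and Aif1, the actin-binding protein IBA1, were not called in any comparison. At ZT22 their log2 fold changes with NR were -0.41 ± 0.11 (SE, edgeR adjusted p = 0.112) and -0.64 ± 0.28 (SE, edgeR adjusted p = 0.378).

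Of the chemokines and their receptors, 1 of 4 was called with age at each time. Ccr2, the receptor for CCL2 that marks monocyte-derived cells, was called higher with age at ZT22 and Ccl9, a chemokine of the CC family, at ZT10. Ccr2 was at 51.1, 71.5 and 75.4 in young, 61.9, 96.9 and 67.4 in old H2O and 71.7, 66.9 and 73.5 in old NR hearts at ZT10. The Ccr2 counts at ZT22 were 54.5, 42.2 and 52.2 in young, 102, 110.1 and 116 in old H2O and 40.3, 62.9 and 80.2 in old NR hearts. The groups overlapped at ZT10, and at ZT22 every old H2O heart lay above every other heart. Ccr2 gave a log2 fold change at ZT22 of 1.16 ± 0.20 (SE, edgeR adjusted p = 0.000518) with age and -0.80 ± 0.19 (SE, edgeR adjusted p = 0.0627) with NR. Ccl9 was at 124, 106 and 84.2 in young, 155, 178 and 179 in old H2O and 117, 149 and 141 in old NR hearts at ZT10. Its counts at ZT22 were 89.98, 154 and 170.3 in young, 116, 134 and 155 in old H2O and 116, 95.8 and 93.7 in old NR hearts. At ZT10 the old H2O hearts lay above the others, and at ZT22 they overlapped with the young hearts. The log2 fold change of Ccl9 with age was 0.70 ± 0.18 (SE, edgeR adjusted p = 0.021) at ZT10, a call lost without old H2O ZT10 replicate 2 or 3 or young ZT10 replicate 2 or 3 (edgeR, adjusted p up to 0.113). It was -0.03 ± 0.17 (SE, edgeR adjusted p = 0.94) at ZT22.

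Ccl6, the neighbour of Ccl9, was at 143, 148 and 142 in young, 189, 236 and 206 in old H2O and 128, 171 and 163 in old NR hearts at ZT10. At ZT22, Ccl6 stood at 109, 196 and 215 in young, 205, 178 and 212 in old H2O and 164, 132 and 125 in old NR hearts. At ZT10 the old H2O hearts lay above the others, and at ZT22 they overlapped with the young, whose replicate 1 lay lowest of all. Ccl6 passed the test in none of the comparisons, with a log2 fold change with age at ZT10 of 0.55 ± 0.17 (SE, edgeR adjusted p = 0.0605) and with NR at ZT22 of -0.52 ± 0.16 (SE, edgeR adjusted p = 0.193). Cx3cr1 encodes the receptor for fractalkine. Cx3cr1 counts at ZT10 were 43.4, 59.1 and 60.3 in young, 19.8, 67.2 and 24.4 in old H2O and 27.2, 21.2 and 25.8 in old NR hearts. At ZT22 it was at 82.4, 51.6 and 74.2 in young, 81.2, 81.9 and 61.4 in old H2O and 44.3, 49.4 and 55.6 in old NR hearts. Old H2O hearts at ZT10 were split, with replicate 2 about as high as the young hearts and the other hearts as low as the old NR hearts. Cx3cr1 gave a log2 fold change of -0.49 ± 0.31 (SE, edgeR adjusted p = 0.405) with age at ZT10. Without old H2O replicate 2 it gave -1.29 (edgeR, adjusted p = 0.00968). With NR it gave -0.65 ± 0.34 (SE, edgeR adjusted p = 0.537) at ZT10, or 0.15 without that heart, and -0.55 ± 0.27 (SE, edgeR adjusted p = 0.45) at ZT22.

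Activation genes held the largest called log2 fold change with age at each time, Gpnmb at ZT10 and Trem2 at ZT22. Gpnmb was also the 1 gene whose log2 fold change with NR at ZT22 was not below 0. Gpnmb encodes a glycoprotein of lipid-laden macrophages. It was at 12.2, 16.6 and 12.6 in young, 32.7, 44.1 and 43.01 in old H2O and 33.3, 43.2 and 35.3 in old NR hearts at ZT10. At ZT22, Gpnmb counts were 15.2, 14.1 and 14.6 in young, 16.6, 28.2 and 46.4 in old H2O and 20.1, 48.7 and 44.5 in old NR hearts. The young hearts lay below every old heart at both times, and the old hearts with and without NR overlapped. Gpnmb rose with age by 1.52 ± 0.34 (SE, edgeR adjusted p = 0.0103) on the log2 scale at ZT10 and 1.16 ± 0.34 (SE, edgeR adjusted p = 0.0272) at ZT22. With NR it gave -0.10 ± 0.28 (SE, edgeR adjusted p = 0.932) and 0.28 ± 0.28 (SE, edgeR adjusted p = 0.811). The ZT22 call with age was lost without old H2O ZT22 replicate 3 or young ZT22 replicate 1 or 2 or 3 (edgeR, adjusted p up to 0.27) and in a fit of the 2 groups alone, and without old H2O ZT22 replicate 3 the value was 0.68. Lgals3, the lectin galectin-3, was at 26.7, 34.2 and 28.9 in young, 44.4, 78.7 and 96.5 in old H2O and 19.2, 44.1 and 39.2 in old NR hearts at ZT10. At ZT22, Lgals3 was at 15.2, 24.4 and 26.1 in young, 37.6, 38.2 and 33.6 in old H2O and 34.9, 23.2 and 22.2 in old NR hearts. The old H2O hearts at ZT10 lay above all others but spread widely, and at ZT22 they lay above the young hearts alone. Lgals3 differed with age at ZT10 by 1.29 ± 0.28 (SE, edgeR adjusted p = 0.00753) on the log2 scale, a call lost without old H2O ZT10 replicate 3 (edgeR, adjusted p up to 0.056). With NR at ZT10 it gave -1.08 ± 0.26 (SE, edgeR adjusted p = 0.0872).

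Trem2, a receptor for lipids and for debris, was among the least abundant genes. Its counts at ZT10 were 15.6, 17.6 and 21.4 in young, 22.2, 9.595 and 10.5 in old H2O and 19.2, 17.9 and 13.4 in old NR hearts. At ZT22, Trem2 was at 12.7, 7.503 and 11.5 in young, 22.6, 35.5 and 26.4 in old H2O and 9.400, 16.5 and 17.5 in old NR hearts. The old H2O hearts at ZT22 lay above all others, and at ZT10 the groups overlapped, with 2 of the 3 old H2O hearts lowest. Trem2 gave at ZT22 1.45 ± 0.32 (SE, edgeR adjusted p = 0.00464) with age and -0.92 ± 0.29 (SE, edgeR adjusted p = 0.195) with NR on the log2 scale. Ms4a6c, a membrane protein of the Ms4a family, was at 33.4, 42.5 and 33.9 in young, 33.9, 43.2 and 40.7 in old H2O and 27.2, 50.6 and 31.5 in old NR hearts at ZT10. The Ms4a6c counts at ZT22 were 22.8, 24.4 and 30.3 in young, 34.6, 36.4 and 44.3 in old H2O and 20.1, 33.7 and 29.4 in old NR hearts. All old H2O hearts lay above both other groups at ZT22, but the log2 fold change of 0.59 ± 0.24 (SE, edgeR adjusted p = 0.114) with age did not pass the test. Ms4a7 and Clec4n, which encodes dectin-2, were not called in any comparison.

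Log2 fold changes of all 42 genes are set out in the plot of the 3 comparisons at each time. With NR at ZT22 the 5 genes called, Csf1r, F13a1, Mrc1, Adgre1 and Laptm5, had log2 fold changes between -0.53 and -0.43. All 5 had also been called higher with age at that time, in comparisons that share the old H2O hearts. This count of 5 was not robust to the choice of hearts or fit. It was 0 without old NR ZT22 replicate 2, 2 without each of old NR ZT22 replicate 1 and old H2O ZT22 replicates 1, 2 and 3, and 6 without old NR ZT22 replicate 3. It was 0 when only the 2 groups compared were fitted and 7 with DESeq2, whereas the median of the 42 log2 fold changes stayed between -0.44 and -0.40 whichever heart was left out.

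**Figure D4:**
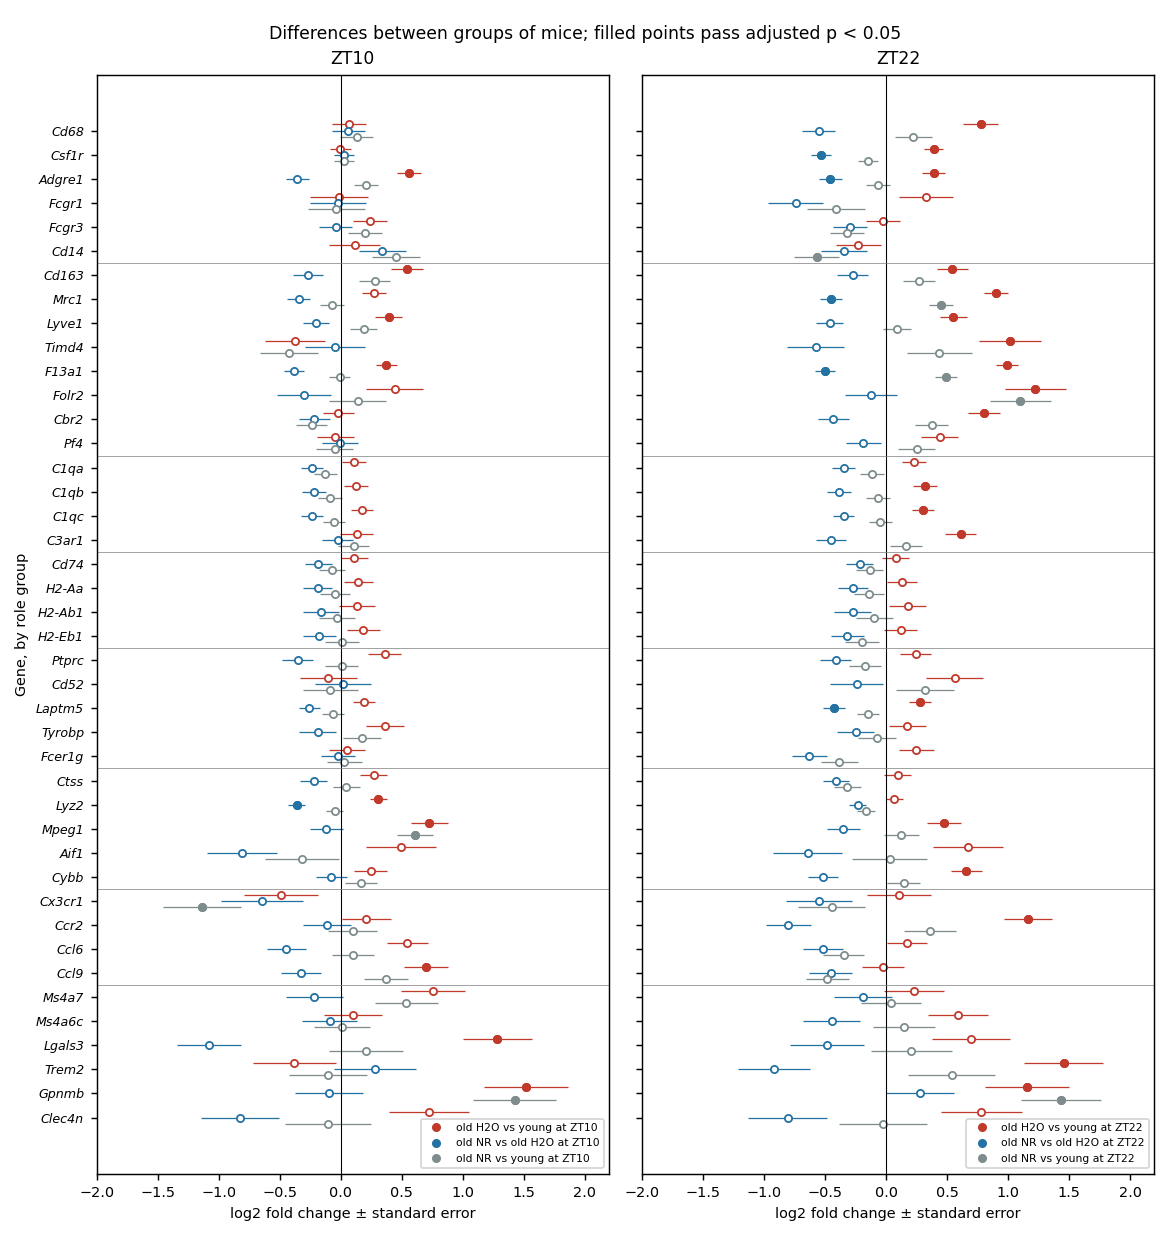
Log2 fold change (x axis) of each of the 42 genes (y axis), with its standard error, for old H2O against young, old NR against old H2O and old NR against young hearts, at ZT10 (left) and ZT22 (right). Filled points passed an adjusted p under 0.05. At ZT22, 39 of the 42 age differences lie above 0 (49.1% of all genes tested) and 41 of the 42 NR differences below 0, and the old NR against young differences scatter around 0 with a median of -0.04.

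Old NR hearts were also set against young hearts. At ZT10, 3 of the 42 genes were called, 2 higher (Gpnmb and Mpeg1) and 1 lower (Cx3cr1), against 4.28% of all genes called, 2.38% higher and 1.9% lower. At ZT22, 5 were called, 4 higher (F13a1, Folr2, Gpnmb and Mrc1) and 1 lower (Cd14), against 14.2% of all genes, 7.6% higher and 6.58% lower. The medians of the 42 log2 fold changes were 0.01 at ZT10 and -0.04 at ZT22. Gpnmb stood 1.43 ± 0.34 (SE, edgeR adjusted p = 0.0181) higher in old NR than in young hearts at ZT10 and 1.43 ± 0.33 (SE, edgeR adjusted p = 0.00529) higher at ZT22, in log2 units, next to its age difference of 1.52 and 1.16. F13a1 was higher by 0.49 ± 0.09 (SE, edgeR adjusted p = 0.000688) at ZT22, Mrc1 by 0.45 ± 0.10 (SE, edgeR adjusted p = 0.00346) and Folr2 by 1.10 ± 0.25 (SE, edgeR adjusted p = 0.00505). Mpeg1 at ZT10 was higher by 0.61 ± 0.15 (SE, edgeR adjusted p = 0.0182). Cx3cr1 at ZT10 differed by -1.14 ± 0.32 (SE, edgeR adjusted p = 0.0474), a call lost without any 1 of the 6 hearts (edgeR, adjusted p up to 0.166). Cd14 at ZT22 differed by -0.57 ± 0.19 (SE, edgeR adjusted p = 0.046), a call lost without old NR ZT22 replicate 1 or 2 or 3 or young ZT22 replicate 2 or 3 (edgeR, adjusted p up to 0.383), with DESeq2, with no filter on low counts and in a fit of the 2 groups alone. Without young ZT22 replicate 2 the value of Cd14 was -0.29. The ZT10 calls of Gpnmb and Mpeg1 were lost without old NR ZT10 replicate 2 or young ZT10 replicate 1 or 3 (edgeR, adjusted p up to 0.0783) and without old NR ZT10 replicate 1 or 2 or young ZT10 replicate 1 or 2 or 3 (edgeR, adjusted p up to 0.0783), and that of Folr2 at ZT22 without old NR ZT22 replicate 3 (edgeR, adjusted p up to 0.0507). The count at ZT10 fell to 0 without old NR ZT10 replicate 2 or young ZT10 replicate 1 or 3, and to 1 without old NR ZT10 replicate 1 or young ZT10 replicate 2. The count at ZT22 was 3 without old NR ZT22 replicate 3 and 9 without young ZT22 replicate 1.

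Levels at ZT10 were then compared with those at ZT22 within each kind of mouse. In young hearts 6 of the 42 genes were called, 5 higher at ZT10 (Cbr2, Cd68, F13a1, Mrc1 and Timd4) and 1 lower (Cd14), against 14.4% of all genes called, 6.8% higher and 7.57% lower. In old H2O hearts 2 were called, Lgals3 higher at ZT10 and Csf1r lower, against 4.2% of all genes, 1.56% higher and 2.64% lower. In old NR hearts 0 were called by edgeR, against 5.37% of all genes, while 8 of the 42 had an unadjusted p under 0.05, beside 18% of all genes, and DESeq2 called 1. In each kind of mouse the share of members called was near or below that of all genes. In young hearts the log2 fold change of ZT10 against ZT22 was 0.42 ± 0.09 (SE, edgeR adjusted p = 0.00264) for F13a1, 0.71 ± 0.14 (SE, edgeR adjusted p = 0.00103) for Cbr2 and 0.98 ± 0.26 (SE, edgeR adjusted p = 0.0139) for Timd4. It was 0.35 ± 0.10 (SE, edgeR adjusted p = 0.0219) for Mrc1, 0.52 ± 0.15 (SE, edgeR adjusted p = 0.0203) for Cd68 and -0.67 ± 0.20 (SE, edgeR adjusted p = 0.0237) for Cd14. In old H2O hearts the corresponding values were -0.19 ± 0.08 (SE, edgeR adjusted p = 0.212) for F13a1, -0.12 ± 0.12 (SE, edgeR adjusted p = 0.657) for Cbr2 and -0.28 ± 0.09 (SE, edgeR adjusted p = 0.0856) for Mrc1. Those of the genes called in old H2O hearts were -0.35 ± 0.08 (SE, edgeR adjusted p = 0.0125) for Csf1r and 1.02 ± 0.26 (SE, edgeR adjusted p = 0.0297) for Lgals3. The call of Timd4 in young hearts was lost without young ZT10 replicate 3 or young ZT22 replicate 2 (edgeR, adjusted p up to 0.0925) and that of Mrc1 without young ZT10 replicate 2 or young ZT22 replicate 2 (edgeR, adjusted p up to 0.188). The call of Cd68 was lost without young ZT10 replicate 2 or young ZT22 replicate 1 (edgeR, adjusted p up to 0.119) and that of Cd14 without young ZT10 replicate 1 or 3 or young ZT22 replicate 2 (edgeR, adjusted p up to 0.241), and both were lost in a fit of the 2 groups alone. The value of Mrc1 was 0.22 without young ZT10 replicate 2, and that of Cd14 was -0.39 without young ZT22 replicate 2. In old H2O hearts, that of Csf1r was lost without old H2O ZT10 replicate 1 or 3 (edgeR, adjusted p up to 0.0723) and that of Lgals3 without old H2O ZT10 replicate 2 or 3 or old H2O ZT22 replicate 2 or 3 (edgeR, adjusted p up to 0.181). The count in young hearts fell to 3 without young ZT22 replicate 2. The count in old H2O hearts was 0 without ZT10 replicate 3, 1 without ZT22 replicate 2 or 3, and 4 without ZT10 replicate 2.

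The difference between the times itself differed with age for 8 of the 42 genes, all in the same direction, with a lower ZT10 to ZT22 difference in old H2O than in young hearts, against 3.76% of all genes called in that direction and 6.89% in either. Of these, 4 were resident macrophage genes. The interaction, in log2 units, was -0.62 ± 0.12 (SE, edgeR adjusted p = 0.00401) for F13a1, -0.63 ± 0.14 (SE, edgeR adjusted p = 0.00697) for Mrc1 and -0.83 ± 0.18 (SE, edgeR adjusted p = 0.00866) for Cbr2. These 3 calls held in each of the 12 fits that left out 1 heart. Timd4 gave -1.39 ± 0.35 (SE, edgeR adjusted p = 0.0198), Trem2 -1.84 ± 0.47 (SE, edgeR adjusted p = 0.0211) and Cd68 -0.71 ± 0.20 (SE, edgeR adjusted p = 0.0355). Ccr2 gave -0.95 ± 0.29 (SE, edgeR adjusted p = 0.0479) and Csf1r -0.39 ± 0.11 (SE, edgeR adjusted p = 0.0424). The call of Timd4 was lost without old H2O ZT10 replicate 3 or young ZT10 replicate 3 or young ZT22 replicate 2 (edgeR, adjusted p up to 0.0664) and that of Trem2 without old H2O ZT10 replicate 2 or 3 or old H2O ZT22 replicate 2 or young ZT10 replicate 3 or young ZT22 replicate 2 (edgeR, adjusted p up to 0.065). That of Cd68 was lost without old H2O ZT10 replicate 2 or 3 or old H2O ZT22 replicate 1 or 3 or young ZT10 replicate 2 or young ZT22 replicate 1 or 2 (edgeR, adjusted p up to 0.11), that of Ccr2 without old H2O ZT10 replicate 1 or 3 or old H2O ZT22 replicate 2 or 3 or young ZT10 replicate 2 or 3 or young ZT22 replicate 2 or 3 (edgeR, adjusted p up to 0.124) and that of Csf1r without old H2O ZT10 replicate 1 or 3 or old H2O ZT22 replicate 1 or 3 or young ZT10 replicate 2 or 3 or young ZT22 replicate 1 or 2 or 3 (edgeR, adjusted p up to 0.121). With all hearts kept, the calls of Csf1r and Cd68 were also lost with DESeq2, those of Csf1r and Ccr2 with no filter on low counts, and that of Cd68 in a fit of the compared groups alone. Markers of other cells were called in this comparison too, Ighm of B cells with -1.05 ± 0.27 (SE, edgeR adjusted p = 0.0196) and Pdgfra of fibroblasts with -0.39 ± 0.10 (SE, edgeR adjusted p = 0.0213) in the direction of the 8 genes, and Zbtb46, carried by dendritic cells and endothelium, with 0.50 ± 0.12 (SE, edgeR adjusted p = 0.0147) in the other. Their part in the result was not tested. The count of 8 fell to 3 without old H2O ZT10 replicate 3 or young ZT22 replicate 2, to 4 without young ZT10 replicate 3, and to 5 without old H2O ZT22 replicate 3 or young ZT10 replicate 2. For 6 of the 8, all but Csf1r and Ccr2, every young heart at ZT10 lay above every young heart at ZT22. The 8 genes were chosen by an interaction that uses these same young hearts, so this separation is partly built in. It is not a separate result, and no share over all genes is given beside it.

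**Figure D5:**
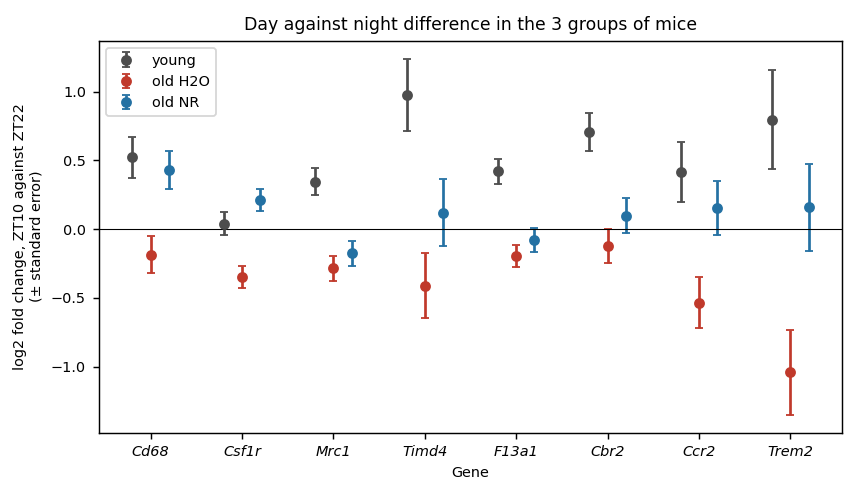
Log2 fold change of ZT10 against ZT22 (y axis), with its standard error, in young, old H2O and old NR hearts, for the 8 genes (x axis) whose difference between the times was called as differing between old H2O and young hearts. The young values lie above 0 and the old H2O values below 0 for each of the 8 genes.

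The difference between the times differed with NR for 1 of the 42 genes, Csf1r, with 0.56 ± 0.11 (SE, edgeR adjusted p = 0.0244) in log2 units, against 0.233% of all genes called in that direction and 0.343% in either. Csf1r in old H2O hearts was at 405, 479 and 414 at ZT10 and 596, 522 and 548 at ZT22. In old NR hearts it was at 465, 415 and 449 and 345, 369 and 424. The old H2O hearts were separated between the times, with ZT22 above ZT10, and the old NR hearts overlapped. The call was lost without old H2O ZT10 replicate 1 or 3 or old NR ZT10 replicate 1 or 3 or old NR ZT22 replicate 2 (edgeR, adjusted p up to 0.105).

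Other genes of the same pathways were read from lists set beside the members, also chosen with earlier results of these data known. Among all genes tested, 2.95% were called higher with age at ZT10 and 7.96% at ZT22, and 2.92% and 6.17% lower. With NR, 0.168% were called lower at ZT10 and 0.259% at ZT22. Of 15 further complement genes tested, 7 were called higher with age at ZT10 and 9 at ZT22, with none lower, and 2 were called lower with NR at each time, C4b and C3. C3 is the central component on which the complement pathways converge, and C4b belongs to the classical pathway. C4b shares most of its sequence with C4a, so its reads are those that could be placed. The log2 fold change of C4b was 1.29 ± 0.15 (SE, edgeR adjusted p = 1.53e-05) with age at ZT10, 2.03 ± 0.15 (SE, edgeR adjusted p = 1.28e-08) at ZT22, -0.80 ± 0.14 (SE, edgeR adjusted p = 0.0227) with NR at ZT10 and -0.98 ± 0.13 (SE, edgeR adjusted p = 0.0024) at ZT22. For C3 the values were 1.02 ± 0.10 (SE, edgeR adjusted p = 1.61e-06), 1.08 ± 0.10 (SE, edgeR adjusted p = 4.02e-07), -0.49 ± 0.10 (SE, edgeR adjusted p = 0.0308) and -0.46 ± 0.10 (SE, edgeR adjusted p = 0.0375) in the same order. Of 16 MHC class I pathway genes, 2 were called higher with age at ZT10 and 6 at ZT22, led at both times by the class I gene H2-T22, with 0.65 ± 0.10 (SE, edgeR adjusted p = 0.00065) and 0.45 ± 0.11 (SE, edgeR adjusted p = 0.00852). None was called with NR, while 9 had an unadjusted p under 0.05 at ZT10 and 1 at ZT22, all lower. Old H2O ZT10 replicate 2 had a sum of 8849 normalized counts for these 16 genes. The other hearts of its group had 7395 and 6909. At this unadjusted p, 6.24% of all genes were lower with NR at ZT22. No share of all genes is given for NR at ZT10. The ZT10 counts at this p, here and in the lists that follow, are therefore not set against genes at large. Of 13 further MHC class II pathway genes, 1, the costimulatory receptor Cd40, was called with age at each time, and it was lower, with log2 fold changes of -0.67 ± 0.20 (SE, edgeR adjusted p = 0.0489) and -0.65 ± 0.20 (SE, edgeR adjusted p = 0.0349).

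Of 14 macrophage growth and transcription factors, 4 were called higher with age at ZT22, among them Maf, a factor of resident macrophages, with 0.77 ± 0.10 (SE, edgeR adjusted p = 3.27e-05), Irf8 with 0.54 ± 0.14 (SE, edgeR adjusted p = 0.0151) and Spi1, which encodes PU.1, with 0.50 ± 0.16 (SE, edgeR adjusted p = 0.0339). At ZT10, 2 were called lower, among them Csf1, which encodes the ligand of CSF1R, with -0.57 ± 0.11 (SE, edgeR adjusted p = 0.00355). With NR 0 of the 14 were called at either time, and 2 at ZT10 and 6 at ZT22 were lower at an unadjusted p under 0.05. Among 16 other chemokines and receptors, 3 were called higher with age at each time. With NR 0 were called, and at an unadjusted p under 0.05 there were 2 at ZT10 and 5 at ZT22. Cx3cl1, which encodes fractalkine, had log2 fold changes with age of 0.86 ± 0.12 (SE, edgeR adjusted p = 0.000137) and 0.60 ± 0.10 (SE, edgeR adjusted p = 0.000586). Of 13 Fc receptor and ITAM signaling genes, 1 was called higher with age at ZT10 (Fcgr4), 1 at ZT22 (Plcg2) and 0 with NR, where 0 at ZT10 and 6 at ZT22 had an unadjusted p under 0.05. At ZT22, 1 of 13 lies near the 7.96% of all genes called higher with age. Among 21 other macrophage genes, 4 were called higher with age at ZT10, and 3 higher and 3 lower at ZT22. The lectin gene Clec10a rose by 1.30 ± 0.22 (SE, edgeR adjusted p = 0.000505) and Fabp5, a carrier of fatty acids, fell, with a log2 fold change of -0.44 ± 0.10 (SE, edgeR adjusted p = 0.00723). With NR at ZT22, Stab1, a scavenger receptor of macrophages and endothelium, was the 1 gene of the 21 called, with -0.38 ± 0.07 (SE, edgeR adjusted p = 0.0111). In the age by time comparison, 2 of the 14 factors were called in the direction of the 8 members, Maf with -0.83 ± 0.14 (SE, edgeR adjusted p = 0.0014) and Csf1 with -0.70 ± 0.16 (SE, edgeR adjusted p = 0.01), as was 1 of the 15 complement genes, C4b, with -0.74 ± 0.21 (SE, edgeR adjusted p = 0.0388). Among all genes tested, 3.76% were called in that direction and 6.89% in either. Of the 21 other macrophage genes 3 were called, and all 3 lay in the opposite direction. They were Tlr4, the receptor for lipopolysaccharide, with 1.60 ± 0.28 (SE, edgeR adjusted p = 0.00156), Ms4a4a with 2.12 ± 0.49 (SE, edgeR adjusted p = 0.0104) and the cytokine gene Il1b with 2.86 ± 0.74 (SE, edgeR adjusted p = 0.0219).

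Markers of other cells and regions moved beside some of these results. The 5 atrial markers, all of them tested, summed at ZT10 to 4202, 1047 and 872 in young, 2195, 2244 and 2856 in old H2O and 728, 632 and 736 in old NR hearts normalized counts. Myl7, Myl4 and Sln were called lower in old NR than in old H2O hearts at ZT10, with log2 fold changes of -1.80 ± 0.33 (SE, edgeR adjusted p = 0.0227), -1.97 ± 0.39 (SE, edgeR adjusted p = 0.0313) and -2.69 ± 0.52 (SE, edgeR adjusted p = 0.0286), so the ZT10 hearts that differed in Lyz2 differed also in atrial markers. At ZT22 the atrial sums were 925, 1471 and 714 in young, 694, 2995 and 763 in old H2O and 1273, 1258 and 906 in old NR hearts, and old H2O and old NR hearts overlapped. The part of the atrial markers in the ZT10 result was not tested. The 5 red blood cell markers, all tested, summed at ZT10 to 795, 525 and 697 in young, 956, 854 and 998 in old H2O and 796, 714 and 809 in old NR hearts, with the old H2O hearts above both other groups. Alas2, the first enzyme of heme synthesis in red cells, was called higher with age at ZT10, with 1.12 ± 0.19 (SE, edgeR adjusted p = 0.00118). The part of these markers in the ZT10 results was not tested either. The 6 fibroblast markers, all tested, summed at ZT10 to 6103, 6563 and 6418 in young, 6215, 5441 and 6007 in old H2O and 5077, 4540 and 5186 in old NR hearts, and the old NR hearts lay below both other groups. Their sums at ZT22 were 5948, 5997 and 5975 in young, 6532, 5631 and 5515 in old H2O and 5213, 4803 and 5334 in old NR hearts. All 3 old NR hearts lay below the old H2O hearts here too, and Col1a1, a chain of type I collagen, was called lower with NR at ZT22, with -0.43 ± 0.09 (SE, edgeR adjusted p = 0.0469). The part of the fibroblast markers in the results with NR was not tested.

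Markers of other leukocytes were scarce. Of 11 T and NK cell markers 4 were abundant enough to be tested, of 9 B and plasma cell markers 7, of 7 neutrophil markers 3, of 5 monocyte markers 3, of 8 dendritic cell markers 5 and of 6 mast cell markers 4. At ZT22, Cd3g of the T cell receptor complex and Plac8 of monocytes were called higher with age, from 3.802, 0.938 and 5.22 normalized counts in young to 16.6, 11.8 and 9.996 in old H2O hearts and from 2.54, 0 and 1.04 to 9.03, 12.7 and 11.4. The T and NK markers at ZT22 summed to 38.02, 44.1 and 37.6 in young, 82.7, 80.1 and 62.8 in old H2O and 69.8, 64.4 and 55.6 in old NR hearts, and the monocyte markers, most of whose sum was Vcan, to 312, 416 and 348 in young, 445, 408 and 389.9 in old H2O and 259, 363 and 354 in old NR hearts. Here old H2O hearts lay above young hearts for the T and NK sum and overlapped with them for the monocyte sum. Among dendritic cell markers, Batf3 was called higher with age at ZT10 and Zbtb46, which endothelium also carries, lower at ZT22. With NR at ZT22, 0 markers of these 6 cell types were called. The part of other leukocytes in the age results was not tested, and MHC class II genes, which B cells and dendritic cells also express, cannot be assigned to macrophages from these data. Of 4 thymus and 4 lung markers, 0 reached the minimum to be tested.

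HL-1 cells, a line of mouse cardiomyocytes derived from an atrial tumor, give the level of these genes in a cultured line without macrophages. That level need not be the one of cardiomyocytes in the heart. In 3 untreated cultures, with 25511707 to 29011104 counts each and counted with another pipeline, 27 of the 42 genes had 3 or fewer counts in every culture. In CPM, counts scaled to a fixed library total, the genes above 10 on average were Lgals3 at 65.7 ± 5.14, Cd68 at 10.7 ± 1.13 and Cd14 at 10.2 ± 1.82 (SD, n = 3), and Mrc1 and Mpeg1 followed at 3.04 ± 0.305 and 1.13 ± 0.457. In the hearts the averages were 6.56 CPM for Lgals3, 14.5 for Cd68, 11.6 for Cd14, 79.1 for Mrc1 and 37.5 for Mpeg1. The pipelines differed, so these levels are set side by side without a test. Lgals3 had the higher CPM in the cell line, Cd68 and Cd14 had similar ones, and most of the other genes were at or near 0 there.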

How the data were processed

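Total RNA of 18 hearts was read as stranded mRNA libraries from a single end. Per the study's methods, the authors trimmed reads (Trimmomatic 0.39), aligned them to mm10 (STAR 2.7.10a), removed duplicate (Picard 3.0.0), multi-mapping, ribosomal and mitochondrial reads, and counted the rest over exons (featureCounts 2.0.4). Reads carried no molecular identifiers, so removing duplicates lowers the most abundant genes most. The authors deposited raw counts per gene in the heart table that is named as normalized. The table named as raw holds a score, counts that the authors divided by a size factor (DESeq2 1.36.0) and rounded, and it was used only to match identifiers to gene symbols. For HL-1 cells, deposited counts from another pipeline were used, and the FPKM values were not.

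Counts of all 18 hearts, 1 mean per group, were tested with edgeR 4.0.16 (limma 3.58.1, R 4.3.3): TMM, quasi-likelihood F-test, two-sided, average count over 5 (15443 of 20764 genes), Benjamini-Hochberg. SE is the log2 fold change over the root of F. With 3 hearts per group, totals of 3922137 to 7562215 counts set the precision, and an exact permutation test of 1 gene cannot go below p = 0.1. Comparisons were old H2O against young, old NR against old H2O and old NR against young at each time, ZT10 against ZT22 within each kind of mouse, and the interactions of time with age and with NR. Alternatives were DESeq2 1.42.0, DESeq2's size factors, no filter on low counts, fits of the compared groups alone, a block for the replicate number, and leaving out each heart. The fits were tested on simulated data in which 200 genes were changed. For old NR against old H2O at ZT22, 92 of the 200 were called at a log2 fold change of 0.5, with 10 false calls. At a log2 fold change of 1, 157 were called, with 7 false calls.

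The 42 genes, their roles and the pathway and marker lists were chosen with earlier results of these data known. Members given heart by heart are those called between groups of mice at 1 time or in an interaction, and the 2 with the highest mean of each role. Where more than 4 of a role were called in 1 comparison, the rule gives the 4 with the lowest adjusted p in full, and every called member qualified by another comparison. At most the 3 called genes with the lowest adjusted p were named per pathway list and comparison. The members with values among other roles and lists were described by counts and range.

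Old NR ZT10 replicates 1 and 3 differed least of all pairs within a group, with a chi-square per degree of freedom of 1.066 (p = 4.3e-08 over 13870 genes), against 1.711 to 6.684 in the other pairs, and were kept as 2 samples.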

Additional observations from a re-analysis of the deposited data

Results flagged for a closer look

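The difference between ZT10 and ZT22 was not the same in old H2O as in young hearts for 8 of the 42 genes, by a test of the interaction of age and time (edgeR, adjusted p under 0.05). In log2 units the interaction was -0.62 ± 0.12 (SE, adjusted p = 0.00401) for F13a1, -0.63 ± 0.14 (adjusted p = 0.00697) for Mrc1, -0.83 ± 0.18 (adjusted p = 0.00866) for Cbr2 and -1.39 ± 0.35 (adjusted p = 0.0198) for Timd4, all of them genes of resident macrophages. It was -1.84 ± 0.47 (adjusted p = 0.0211) for Trem2, -0.71 ± 0.20 (adjusted p = 0.0355) for Cd68, -0.39 ± 0.11 (adjusted p = 0.0424) for Csf1r and -0.95 ± 0.29 (adjusted p = 0.0479) for Ccr2. The calls of F13a1, Mrc1 and Cbr2 held whichever of the 12 hearts was left out, and each of the other calls was lost in at least 3 of those 12 fits, with the hearts named beside the values in the report. For Csf1r the difference between the times also differed between old NR and old H2O hearts, by 0.56 ± 0.11 (edgeR, adjusted p = 0.0244), a call that was lost without old H2O ZT10 replicate 1 or 3, old NR ZT10 replicate 1 or 3, or old NR ZT22 replicate 2. Both interactions of Csf1r use the same 6 old H2O hearts.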

How the results depend on the processing

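No direction of a called gene was reversed under any alternative. Of 269 log2 fold changes of single genes, 65 changed sign under at least 1 alternative, none of them called before or after. With all hearts kept 3 did so, reaching at most 0.0111 in size. The medians of old NR against young hearts, near 0, also changed sign, with ranges of -0.05 to 0.07 at ZT10 and -0.08 to 0.03 at ZT22 as single hearts were left out. With edgeR's quasi-likelihood test and Benjamini-Hochberg adjustment over all genes, the count of members called lower with NR at ZT10 was 1, and it was 2 with DESeq2, 2 with no filter on low counts, 4 with only the groups compared and 0 without any 1 heart. With NR at ZT22 it was 5, and 0 with only the groups compared. Between ZT10 and ZT22 in old NR hearts it was 0, and 1 with DESeq2 and 1 with only the groups compared. Other alternatives that kept all hearts, apart from the replicate block given next, left each count within 1.5 times its value. Leaving out 1 heart at a time gave 6 to 9 members with age at ZT10 and 13 to 18 at ZT22 (13 without young ZT22 replicate 2), 0 to 0 and 0 to 6 with NR at ZT10 and ZT22, 0 to 2 and 3 to 9 for old NR against young, 3 to 7, 0 to 4 and 0 to 0 between the times in young, old H2O and old NR hearts, and 3 to 9 and 0 to 1 for the interactions of time with age and with NR. Size factors of DESeq2 in place of TMM moved the median of all genes by at most 0.0048 in log2 units. At a median of 5534659 counts per heart, genes such as Trem2 and Gpnmb, with means of 17.3 and 30.8 counts, have wide errors, and a change of the size seen for C1qb could be missed in them.

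The labels give the same replicate numbers in every group and do not say whether a number marks a shared step. Over 45 pairs of same-numbered hearts the correlation of their deviations from the group means ran from -0.124 to 0.181, and 7 exceeded 0.1. The median was 0.031, against -0.0245 for pairs with different numbers. These values do not settle whether same-numbered hearts share a step, and the main fit treated all hearts as unpaired. With the replicate block, the count with NR at ZT10 was 3 and that at ZT22 was 7, and no other count moved by more than 1.5 times.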
